A study of Homo sapiens with 3 samples.

Results

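Autophagy and lysosome genes are described here as a set of 42 genes, chosen by function: 22 encode autophagy proteins, 17 encode lysosomal proteins and 3 encode MiT/TFE transcription factors. All 42 were measured, out of 19775 genes with a single symbol on the array. Each gene was read on the probe set, that is, the group of short oligonucleotides designed against it, with the highest mean signal over the arrays, and its other probe sets served as a check. All 42 also passed a filter on dim genes, which kept 13296 genes whose signal was above the array's median on at least 1 array, and no member was at the signal floor of 41.2 on any array. By mean signal, 27 members were in the brightest 3 deciles of the tested genes and 10 in the brightest decile.

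The arrays came from KMS11, an established cell line of human multiple myeloma, a cancer of plasma cells, with the t(4;14) translocation, which drives high expression of the histone methyltransferase gene MMSET (NSD2). All cells were infected with a lentivirus that carried a short hairpin RNA, with polybrene present, and RNA was taken at 48 h. The control group, shLuc, received a hairpin against luciferase, and the groups shMMSET#2 and shMMSET#4 each received a different hairpin against MMSET. The model is 1 cell line, each group is 1 array, and whether infected cells were selected was not given in the sources used here. With no replicates no p-value is given for a single hairpin, a difference is described by its size on these arrays, and 1.5-fold from shLuc is the size at which a gene is counted as lower or higher. The spread available is that between the hairpin arrays, which differed by up to 2.37-fold for 95% of tested genes and which includes real differences between the hairpins. Below, a member's spread is the fold within which these arrays lay for 95% of tested genes of its own signal decile.

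In macroautophagy a cup-shaped membrane, the phagophore, grows around cytoplasmic cargo, closes into an autophagosome and fuses with a lysosome, where acid hydrolases digest the contents. The ULK1 kinase complex and the class III phosphatidylinositol 3-kinase complex start the process. WIPI proteins bind phosphatidylinositol 3-phosphate on the phagophore, and ATG2 proteins supply lipid. Ubiquitin-like conjugation enzymes attach ATG8 proteins to the membrane, and cargo receptors bind these ATG8 proteins. The MiT/TFE factors TFEB, TFE3 and MITF bind CLEAR elements in the promoters of many lysosomal and some autophagy genes. Plasma cells and myeloma cells make large amounts of secreted protein, and autophagy works beside the proteasome in the protein turnover of such cells.

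On the deposited scale the set as a whole lay close to shLuc, and 5 members were past 1.5-fold in the same direction with both hairpins. ATG2B (a lipid transfer protein), GLA (alpha-galactosidase A), NEU1 (a sialidase) and NPC2 (a cholesterol carrier of the lysosomal lumen) were higher with both, and GABARAPL1, an ATG8 protein, was lower with both. The 4 higher members are 9.52% of the set, and 8.6% of all tested genes met the same criterion. The 1 lower member is 2.38% of the set, where 11.9% of all tested genes were lower with both. The other 37 members were neither. Of the 42, 23 (54.8%) stayed within 1.5-fold of shLuc with both hairpins, against 44.9% of all tested genes. Most members are bright, and the background depends on signal. Under a filter at the 75th percentile of signal, which kept 8195 genes, 7.31% were lower and 10% higher with both. Of the members, 37 passed that filter, with 1 lower and 4 higher.

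With shMMSET#2, 8 members were at least 1.5-fold higher and 4 were lower, which is 19.0% and 9.52% of the set, against 16.2% and 22.5% of all tested genes. With shMMSET#4, 8 were higher and 5 were lower, or 19.0% and 11.9%, against 17.3% and 20.6%. Under the filter at the 75th percentile, 16.6% and 14% of genes were lower with shMMSET#2 and shMMSET#4, beside 3 and 4 of 37 members. The median log2 ratio of the members was 0.09 with shMMSET#2 (SD 0.51 over the 42 members) and -0.04 with shMMSET#4 (SD 0.61), and over all tested genes it was -0.04 and -0.02. The share of higher members was thus near the background with each hairpin, and both hairpins were set against the same shLuc array, so their agreement is a description. Beyond a member's spread were NPC2 with shMMSET#2 and ATG2B, GLA and GABARAPL1 with shMMSET#4, and no member exceeded its spread with both hairpins. Of all tested genes, 3.58% were higher and 5.93% lower than shLuc by more than this spread with shMMSET#2, and 3.99% and 4.57% with shMMSET#4; with both hairpins it was 1.73% and 2.06%. At a 2-fold threshold, 2 members were higher and none was lower with shMMSET#2 (background 5.69% and 10.7%), and with shMMSET#4 3 were higher and 2 lower (6.74% and 8.95%). ATG2B was the 1 member 2-fold higher with both, and none was 2-fold lower with both (2.83% and 4.35%). In bulk RNA such as this, fewer cells of a kind and less RNA per cell cannot be told apart.

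Facts of the arrays bear on all of these ratios. On its brightest probe set the targeted gene NSD2 read 10300, 7032 and 7476 (1.46-fold and 1.38-fold below shLuc). Over its 6 probe sets the median log2 ratio was -1.33 with shMMSET#2, with all 6 lower, and -0.48 with shMMSET#4, with 5 lower. The median probe set signal was 77.4, 62.0 and 59.5 on the shLuc, shMMSET#2 and shMMSET#4 arrays, and 18 bacterial hybridisation control probe sets, spiked into the hybridisation mix, were lower than on the shLuc array by a median log2 ratio of -0.30 and -0.54. Scaling the arrays to a common median signal moved the median of all tested genes to 0.25 and 0.34 on the log2 scale, and scaling to the spiked controls, an alternative chosen after seeing the data, moved it to 0.22 and 0.48. The median of the members moved as well, to 0.41 and 0.34 under median scaling and to 0.37 and 0.48 under scaling to the spiked controls. The members higher with both hairpins then numbered 9 and 11 (background 19.7% and 21.0%), and no member was lower with both (background 5.28% and 4.69%). GLA, NEU1, NPC2 and ATG2B were among the higher members under each scaling, quantile normalization included, and GABARAPL1 had a log2 ratio of -0.45 and -0.49 with shMMSET#2 under the first 2 of these, short of 1.5-fold. Over these 3 scalings no member past 1.5-fold from shLuc changed direction, but 8 of the 42 members did with shMMSET#2 and 18 with shMMSET#4, all of them within 1.5-fold; the directions below are those on the deposited scale unless a scaling is named.

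**Figure D1:**
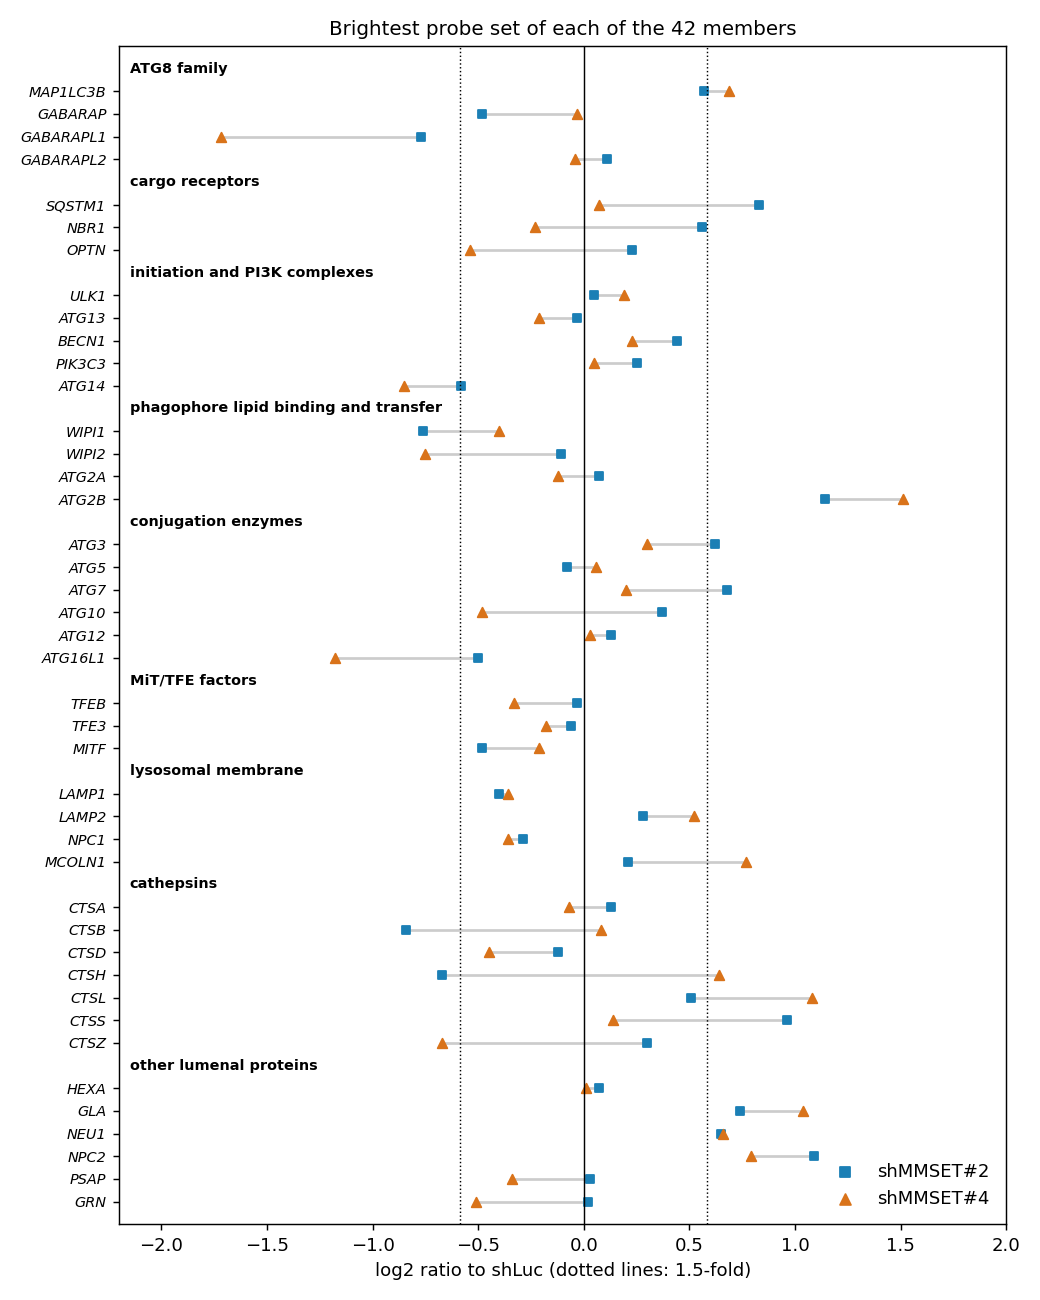
Log2 ratio to shLuc (horizontal axis) of the brightest probe set of each of the 42 members, grouped by role, with squares for shMMSET#2 and triangles for shMMSET#4 (1 array each); dotted lines mark 1.5-fold. ATG2B, GLA, NEU1 and NPC2 have both symbols right of the right-hand line, and GABARAPL1 is the member with both left of the left-hand line.

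ATG2B moves phospholipid from the endoplasmic reticulum to the growing phagophore. Signals of 444 (shLuc), 978 (shMMSET#2) and 1268 (shMMSET#4) were read, so both hairpin arrays were above the control, by 2.20-fold and 2.86-fold. The spread was 2.29-fold. A second ATG2B probe set gave 564, 417 and 548, with log2 ratios of -0.43 and -0.04. A dim one gave 31.2, 48.4 and 142, with 0.23 and 1.79 from a shLuc signal under the floor. Of the 3 probe sets above the array median, 2 were thus higher and 1 was lower with each hairpin, so they did not all agree. The mean log2 ratio over all its probe sets was 0.11 with shMMSET#2 and 0.77 with shMMSET#4. That mean includes a further dim probe set at 58.4, 2.95 and 51.8, where the shMMSET#2 signal was under the floor.

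NPC2 binds cholesterol released in the lysosome and hands it to the membrane protein NPC1. It read 3657 (shLuc), 7787 (shMMSET#2) and 6328 (shMMSET#4), or 2.13-fold and 1.73-fold higher. Both hairpin arrays stood above the control, and the spread was 1.85-fold. NPC1 itself was on the other side of the control, with 2926, 2387 and 2278 (1.23-fold and 1.28-fold lower), inside its spread of 1.99-fold, and under median scaling at log2 ratios of 0.03 and 0.02.

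GLA cleaves terminal alpha-galactose from glycolipids and is the enzyme missing in Fabry disease. It read 1907 (shLuc), 3193 (shMMSET#2) and 3915 (shMMSET#4), or 1.67-fold and 2.05-fold higher, with a spread of 1.99-fold. NEU1 removes sialic acid and forms a complex with the carboxypeptidase CTSA (cathepsin A), which protects it. NEU1 had 1352, 2122 and 2142, so the hairpin arrays were nearly level with each other and 1.57-fold and 1.58-fold above shLuc, with a spread of 2.12-fold. CTSA had 4904, 5361 and 4667, within 1.09-fold of shLuc on both hairpin arrays. GLA, NEU1 and NPC2 were each read by 1 probe set, so no second probe set could check them.

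GABARAPL1 is an ATG8 protein of the GABARAP branch, which acts in late steps of autophagosome formation. It read 814 (shLuc), 476 (shMMSET#2) and 246 (shMMSET#4), or 1.71-fold and 3.30-fold lower, with a spread of 2.36-fold. A second probe set gave 491, 230 and 233, or 2.14-fold and 2.11-fold lower, so both probe sets were below the control on both hairpin arrays while differing in which hairpin was lowest. A near-identical gene copy, GABARAPL3, exists, and the 1 probe set annotated to both was left out, so a contribution of that copy to the signal was not tested.

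**Figure D2:**
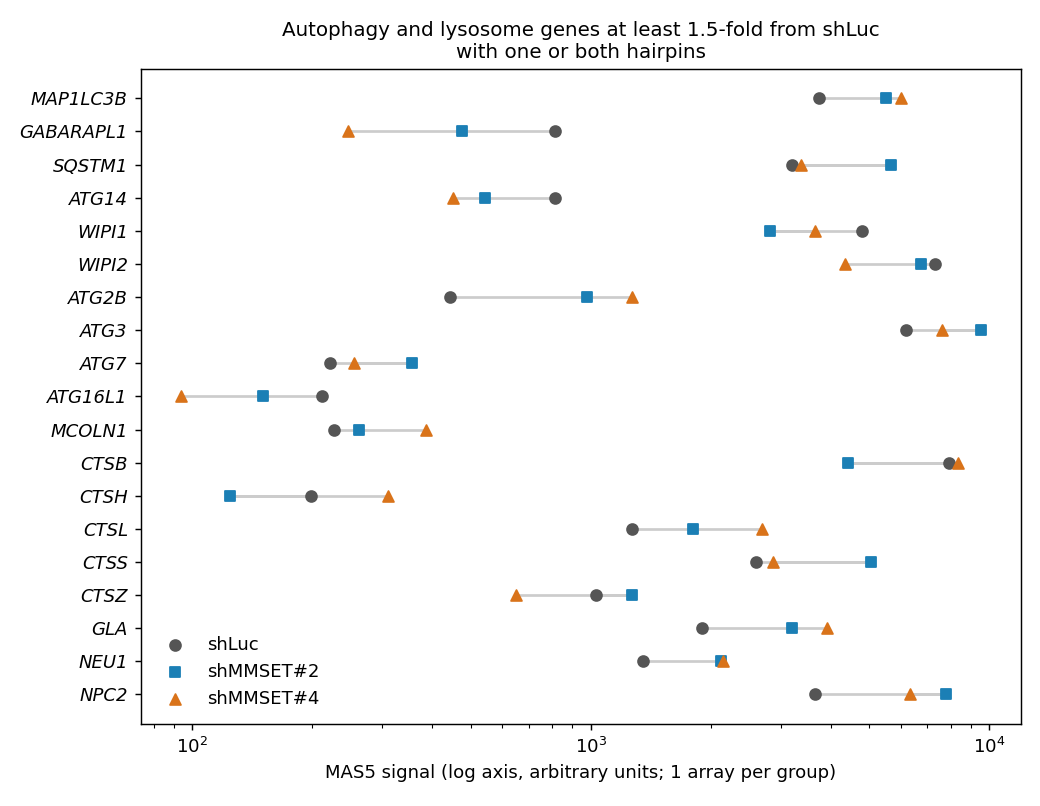
MAS5 signal (horizontal log axis, arbitrary units) of the members at least 1.5-fold from shLuc with one or both hairpins, with a circle for shLuc, a square for shMMSET#2 and a triangle for shMMSET#4 (1 array each). GABARAPL1 is at 814 on the shLuc array and at 246 on the shMMSET#4 array, and CTSH has shLuc (199) between shMMSET#2 (125) and shMMSET#4 (309).

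The 5 members past 1.5-fold with both hairpins are shown by the 250 bases before their start sites, because the results turn on them, 5′ to 3′ on the gene's own strand (RefSeq, GRCh38.p14). Capitals mark the letters TCACGTG or, on the other strand, CACGTGA, which are the core of the CLEAR element. The table held 2 starts for NPC2, and the promoter of the more upstream one is shown.
ATG2B (chr14:96363342-96363591, minus strand): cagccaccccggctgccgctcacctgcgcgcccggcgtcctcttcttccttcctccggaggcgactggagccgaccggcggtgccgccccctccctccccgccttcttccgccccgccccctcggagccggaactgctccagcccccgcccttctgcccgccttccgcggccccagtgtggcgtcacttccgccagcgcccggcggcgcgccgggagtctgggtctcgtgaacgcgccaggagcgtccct
GLA (chrX:101407926-101408175, minus strand): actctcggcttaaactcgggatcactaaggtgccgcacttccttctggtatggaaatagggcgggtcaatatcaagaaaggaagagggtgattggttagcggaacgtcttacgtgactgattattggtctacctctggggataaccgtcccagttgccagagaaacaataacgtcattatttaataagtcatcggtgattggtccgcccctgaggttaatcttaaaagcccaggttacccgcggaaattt
NEU1 (chr6:31862822-31863071, minus strand): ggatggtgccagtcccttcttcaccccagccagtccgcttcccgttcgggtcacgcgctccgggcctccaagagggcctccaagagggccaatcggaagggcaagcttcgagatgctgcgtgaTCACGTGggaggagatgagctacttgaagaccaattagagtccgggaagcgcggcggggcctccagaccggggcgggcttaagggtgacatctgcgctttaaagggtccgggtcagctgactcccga
NPC2 (chr14:74493513-74493762, minus strand): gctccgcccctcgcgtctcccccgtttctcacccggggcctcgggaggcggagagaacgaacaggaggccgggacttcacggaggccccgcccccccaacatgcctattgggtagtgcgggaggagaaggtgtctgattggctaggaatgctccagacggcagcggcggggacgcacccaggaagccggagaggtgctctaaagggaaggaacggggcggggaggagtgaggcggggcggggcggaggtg
GABARAPL1 (chr12:10212627-10212876, plus strand): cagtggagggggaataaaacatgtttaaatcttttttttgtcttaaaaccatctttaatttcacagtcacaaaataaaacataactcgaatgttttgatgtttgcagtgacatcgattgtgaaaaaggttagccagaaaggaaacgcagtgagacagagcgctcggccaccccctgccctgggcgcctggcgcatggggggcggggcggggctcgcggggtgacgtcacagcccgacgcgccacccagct
NEU1 alone of these 5 holds the marked letters. Over the 300 bases from 250 before to 50 after the start, G and C made up 75% of the ATG2B promoter, 69.7% of NPC2, 63.7% of NEU1, 51.7% of GABARAPL1 and 48% of GLA, so the higher members spanned a wide range of base composition.

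Among the MiT/TFE factors themselves, all 3 stayed within 1.5-fold of shLuc with both hairpins. TFEB, a main activator of lysosomal genes, had 786 with shLuc, 772 with shMMSET#2 and 625 with shMMSET#4. TFE3, its close relative, had 2931, 2812 and 2578, and MITF, best known from melanocytes, had 798, 572 and 692. On these probe sets the largest difference was that of MITF with shMMSET#2, 1.40-fold lower. Their median log2 ratio was -0.06 with shMMSET#2 and -0.21 with shMMSET#4, but 0.26 and 0.17 under median scaling and 0.22 and 0.32 under scaling to the spiked controls, so no direction held. On their second brightest probe sets TFEB, TFE3 and MITF were higher with shMMSET#2, with log2 ratios of 0.26, 0.18 and 0.14.

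Promoters with CLEAR letters were set beside these ratios, as a description. Of the 42 members, 37 had a promoter of 300 bases in the RefSeq table. TCACGTG on either strand was present in 7 of the 37 (18.9%), against 7.11% of 10722 tested genes with a promoter. Counted by gene in the same way, it was in 4.49% of all 27305 genes with a promoter. Counted by entry, it was in 3.71% of all 35116 promoters of the same length. The shorter E-box CACGTG, which lies within it, was in the same 7 members (12.5% of tested genes, 8.77% of all genes and 7.26% of all promoters). The 10-base palindrome GTCACGTGAC, which contains both, was among the members in MCOLN1 alone. That is 2.7% of the 37, against 0.886% of tested genes, 0.421% of all genes and 0.353% of all promoters. The 7-base form was chosen after the promoters had been looked at. The stretches around the matches of the 6 members other than NEU1 are shown, because MiT/TFE factors are known to bind such letters, with the same capitals; where 2 matches overlap on opposite strands the capitals run over both.
LAMP1 (chr13:113297034-113297256, plus strand): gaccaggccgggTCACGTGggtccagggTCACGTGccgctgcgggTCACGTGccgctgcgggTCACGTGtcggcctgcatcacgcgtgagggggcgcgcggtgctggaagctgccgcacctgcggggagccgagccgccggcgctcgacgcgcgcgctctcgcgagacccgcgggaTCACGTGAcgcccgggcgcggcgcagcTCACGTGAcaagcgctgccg
MCOLN1 (chr19:7522570-7522628, plus strand): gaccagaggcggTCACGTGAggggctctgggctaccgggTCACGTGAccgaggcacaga
CTSA (chr20:45891280-45891328, plus strand): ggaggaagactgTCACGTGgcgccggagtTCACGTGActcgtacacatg
ATG3 (chr3:112561939-112561993, minus strand): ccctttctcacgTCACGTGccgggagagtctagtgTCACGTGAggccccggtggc
CTSD (chr11:1763956-1763986, minus strand): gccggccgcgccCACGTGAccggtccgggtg
ATG14 (chr14:55411833-55411863, minus strand): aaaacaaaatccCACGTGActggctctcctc
With overlapping matches counted once, LAMP1 holds 6, and MCOLN1, CTSA and ATG3 hold 2 each. The 7 members with the letters differed in direction: their log2 ratios spanned -0.58 to 0.65 (shMMSET#2) and -0.85 to 0.77 (shMMSET#4), with medians of 0.13 and -0.07. The 30 members without them had medians of 0.09 and -0.08. Over all tested genes the medians were 0.01 and 0.03 for the 762 genes with the letters and -0.03 and -0.02 for the 9960 without.

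The ATG8 proteins, which coat the phagophore and dock cargo receptors, differed in direction. MAP1LC3B, which encodes the autophagosome marker LC3B, had 3731 with shLuc, 5523 with shMMSET#2 and 6018 with shMMSET#4, or 1.48-fold and 1.61-fold higher, with a spread of 1.85-fold. Its second probe set read 3704, 2884 and 4181, lower with shMMSET#2 and higher with shMMSET#4, and the mean log2 ratio over both with shMMSET#4 was 0.43, short of 1.5-fold. GABARAPL2 (11144, 12032 and 10808) was within 1.08-fold of shLuc, and GABARAP (4654, 3328 and 4556) was 1.40-fold lower with shMMSET#2 and level with the control with shMMSET#4.

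The cargo receptors differed between the hairpins on their brightest probe sets. SQSTM1 (p62), which carries ubiquitinated cargo to the phagophore, had 3208 with shLuc, 5685 with shMMSET#2 and 3377 with shMMSET#4. NBR1, a receptor with a related domain layout, had 3163, 4659 and 2693, and OPTN (optineurin), a receptor for mitochondria and bacteria, had 4333, 5097 and 2988. In all 3 the shMMSET#2 array was the highest, and the shMMSET#4 array was 1.68-fold, 1.73-fold and 1.71-fold below it, inside the spread of 1.99-fold. Under scaling to the spiked controls these log2 ratios were -0.51, -0.55 and -0.53, short of 1.5-fold. Over all SQSTM1 probe sets the mean was -0.39, while the next brightest alone had -1.20. Against shLuc, SQSTM1 with shMMSET#2 (1.77-fold higher) was the 1 value past 1.5-fold, and it did not hold on the other SQSTM1 probe sets: the next brightest gave 1475, 1377 and 600. The mean log2 ratio over the SQSTM1 probe sets with shMMSET#2 was -0.02. On the shMMSET#4 array both OPTN probe sets were below shLuc, by 1.45-fold and 1.82-fold.

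The initiation genes stayed near the control on their brightest probe sets, except ATG14. ULK1, the kinase that starts autophagy, had 197 with shLuc, 204 with shMMSET#2 and 225 with shMMSET#4. Its partner ATG13 was within 1.16-fold, and the lipid kinase subunit genes BECN1 and PIK3C3 were within 1.36-fold and 1.19-fold. ATG14, the subunit that directs this kinase complex to autophagy, had 813, 544 and 451, a log2 ratio of -0.58 with shMMSET#2, just under 1.5-fold, and 1.80-fold lower with shMMSET#4; its spread was 2.29-fold. With shMMSET#4 the ATG14 log2 ratio was -0.47 under median scaling and -0.33 under scaling to the spiked controls, short of 1.5-fold. PIK3C3 depended on the probe set: the brightest read 1773, 2108 and 1837, while 3 dimmer probe sets were lower by 1.64-fold to 1.67-fold (shMMSET#2) and 2.17-fold to 3.31-fold (shMMSET#4).

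The WIPI proteins bind phosphatidylinositol 3-phosphate on the phagophore, and both WIPI genes were past 1.5-fold with 1 hairpin, a different one for each. WIPI1 had 4799 with shLuc, 2825 with shMMSET#2 and 3649 with shMMSET#4, or 1.70-fold and 1.32-fold lower, and its second probe set was 1.49-fold and 1.88-fold lower. With shMMSET#2 its log2 ratio was -0.44 under median scaling and -0.48 under scaling to the spiked controls, short of 1.5-fold. WIPI2 had 7313, 6761 and 4359, with the shMMSET#4 array apart from the other 2. All 4 of these WIPI2 probe sets were at least 1.5-fold lower with shMMSET#4, with log2 ratios from -1.11 to -0.69, and none was with shMMSET#2, where they ran from -0.43 to -0.05. Under scaling to the median signal the brightest WIPI2 probe set had a log2 ratio of -0.37 with shMMSET#4, and under scaling to the spiked controls -0.22. ATG2A, the other lipid transfer gene, was within 1.09-fold of shLuc.

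The conjugation enzymes, which join ATG12 to ATG5 and ATG8 proteins to lipid, had no member past 1.5-fold with both hairpins. ATG16L1, which places the ATG12 and ATG5 conjugate on the membrane, had 212, 150 and 93.5, or 1.41-fold and 2.27-fold lower, with a spread of 2.95-fold at this low signal. ATG3, the E2-like enzyme for ATG8 proteins, had 6173, 9509 and 7626, or 1.54-fold and 1.24-fold higher, and both its probe sets were higher with both hairpins. ATG7, the E1-like enzyme, had 222, 356 and 254 on its brightest probe set (1.60-fold and 1.14-fold higher), but its 4 probe sets ran from -1.13 to 0.68 on the log2 scale with shMMSET#2. On their brightest probe sets ATG5 was within 1.06-fold and ATG12 within 1.10-fold of shLuc. The other 2 ATG12 probe sets rose past 1.5-fold on the shMMSET#2 array, at log2 ratios of 1.0 and 0.70. On the shMMSET#4 array they had 0.53 and 0.07, short of 1.5-fold. The second ATG5 probe set stayed within 1.10-fold, and the dimmest had log2 ratios of 0.37 (shMMSET#2) and -0.56 (shMMSET#4). ATG10, the E2-like enzyme for ATG12, had 371, 481 and 266 on its brightest probe set, so the control lay between the hairpin arrays there, and they differed by 1.81-fold. Its 2 other probe sets above the array median were lower with shMMSET#2, with log2 ratios of -0.27 and -1.41. The mean log2 ratio of shMMSET#4 to shMMSET#2 over all ATG10 probe sets was -0.28, short of 1.5-fold. That mean includes a probe set at 15.6 (shMMSET#2) and 11.1 (shMMSET#4), both under the floor, where the ratio is 0 by construction.

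**Figure D3:**
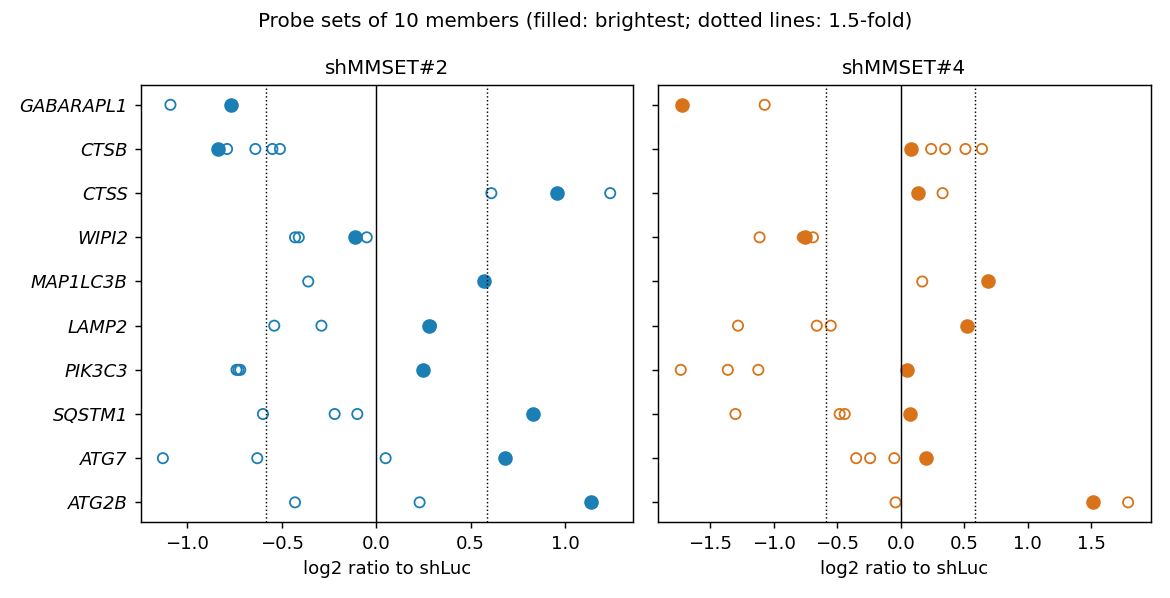
Log2 ratio to shLuc (horizontal axis) of every probe set above the array median on at least 1 array for 10 members, with shMMSET#2 on the left and shMMSET#4 on the right; filled points are the brightest probe set, open points the others, and dotted lines mark 1.5-fold. CTSB and CTSS keep their side of 0 with shMMSET#2 on all probe sets, whereas SQSTM1 and ATG7 have probe sets past 1.5-fold on both sides with shMMSET#2.

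The probe sets behind the set were uneven. Of 110 probe sets of the members, 96 were above the array median on at least 1 array, and 14 members had only 1 such probe set. Among the 28 with more, ATG7, ATG13 and SQSTM1 had probe sets past 1.5-fold in opposite directions with shMMSET#2, and HEXA did with shMMSET#4. HEXA, a beta-hexosaminidase subunit, read 4033, 4239 and 4067 on its brightest probe set, within 1.05-fold, while 2 dimmer ones were 1.91-fold and 2.56-fold lower with shMMSET#4. Which transcript form each probe set reads was not analysed here.

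The lysosomal membrane genes stayed close to the control, apart from MCOLN1. LAMP1, an abundant membrane glycoprotein, had 14401 with shLuc, 10951 with shMMSET#2 and 11197 with shMMSET#4, or 1.32-fold and 1.29-fold lower, though with shMMSET#4 the log2 ratio was 0.02 under median scaling. LAMP2, its relative that also serves chaperone-mediated autophagy, had 10586, 12849 and 15180 on its brightest probe set, with both hairpin arrays above the control. Its 3 other probe sets were 1.46-fold to 2.42-fold lower with shMMSET#4, so the direction for LAMP2 depends on the probe set. MCOLN1, a calcium channel of the lysosome and a known TFEB target, had 227, 262 and 387, which is 1.16-fold and 1.71-fold higher, with a spread of 2.64-fold.

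The cathepsins, the proteases of the lysosome, had no member past 1.5-fold in the same direction with both hairpins, and 2 of the 7 (28.6%) stayed within 1.5-fold with both, against 44.9% of all tested genes. CTSB, a cysteine protease, had 7937 with shLuc, 4429 with shMMSET#2 and 8372 with shMMSET#4. All 5 CTSB probe sets were lower with shMMSET#2 (log2 ratios from -0.84 to -0.51) and higher with shMMSET#4 (0.08 to 0.64), so the shMMSET#2 array was below the other 2. With shMMSET#2 the brightest probe set had -0.52 under median scaling and -0.56 under scaling to the spiked controls, short of 1.5-fold. CTSS, the cathepsin that trims the invariant chain of MHC class II, had 2596, 5056 and 2870, and all 3 of its probe sets were 1.52-fold to 2.37-fold higher with shMMSET#2 and at most 1.26-fold higher with shMMSET#4. Here the shMMSET#2 array was above the other 2, with a spread of 1.99-fold.

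CTSL, a potent endopeptidase, had 1273, 1807 and 2687, with both hairpin arrays above the control by 1.42-fold and 2.11-fold, just inside its spread of 2.12-fold. CTSH, an aminopeptidase, had 199, 125 and 309, so it was 1.60-fold lower with shMMSET#2 and 1.56-fold higher with shMMSET#4. With shMMSET#2 its log2 ratio of -0.67 became -0.35 under median scaling, -0.44 under quantile normalization and -0.39 under scaling to the spiked controls, each short of 1.5-fold. CTSZ, a carboxypeptidase, had 1032, 1270 and 651, which is 1.23-fold higher and 1.59-fold lower. With shMMSET#4 its log2 ratio was -0.29 under median scaling and -0.14 under scaling to the spiked controls, both short of 1.5-fold. The mean over its probe sets was -0.33, but the other CTSZ probe set was under the floor on all 3 arrays. The ratio of that probe set is 0 by construction, so this mean is no check on the brightest one. CTSD, the aspartic protease, had 269, 247 and 197, within 1.37-fold.

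Of the 6 lumenal members other than the cathepsins, GLA, NEU1 and NPC2 were higher with both hairpins, and the others were HEXA, PSAP and GRN. None of the 7 cathepsins, which are also lumenal, was higher with both. Over all 17 lysosome members the 3 are 17.6%, against 8.6% of all tested genes, and these roles were chosen with earlier results known. PSAP, the precursor of the saposins that help digest sphingolipids, had 12800 with shLuc, 13109 with shMMSET#2 and 10137 with shMMSET#4. GRN (progranulin), which travels with PSAP to the lysosome, had 3185, 3223 and 2234. Both were level with the control with shMMSET#2 and lower with shMMSET#4, by 1.26-fold and 1.43-fold, and both probe sets of PSAP and all 3 of GRN were lower with that hairpin on the deposited scale. Under scaling to the spiked controls the brightest ones had log2 ratios of 0.19 (PSAP) and 0.01 (GRN) with it.

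Set directly against shMMSET#2, shMMSET#4 had 9 lower and 2 higher members at the 1.5-fold threshold, or 21.4% and 4.76% of the set, against 13.6% and 16.9% of all tested genes. The lower members were CTSZ, GABARAPL1, ATG10, CTSS, NBR1, OPTN, SQSTM1, ATG16L1 and WIPI2, of which 7 are autophagy genes, and the higher were CTSB and CTSH. In all, 27 of the 42 members were lower with shMMSET#4, and the median log2 ratio was -0.18, against 0.00 over all tested genes. Under scaling to the spiked controls the counts were 3 lower and 7 higher of 42, and the median was 0.06 (background 7.87% and 27.5%). The balance of the counts thus depends on the scaling, and the background moved with it. Under scaling to the median signal the counts were 8 and 4 (background 11.8% and 19.6%). At a 2-fold threshold 1 member, CTSH, was higher and none was lower (background 6.6% and 3.72%). CTSH differed by 2.48-fold, and stayed inside its spread of 2.64-fold.

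**Figure D4:**
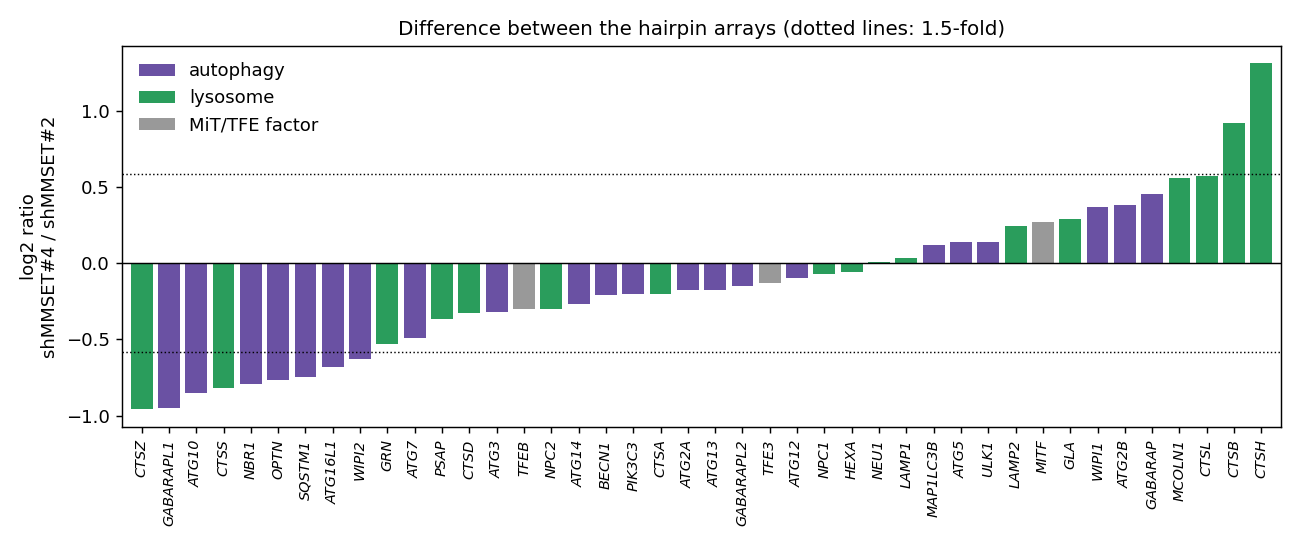
Log2 ratio of shMMSET#4 to shMMSET#2 (vertical axis) for the 42 members in rising order, as bars from 0, coloured by autophagy gene, lysosome gene or MiT/TFE factor; dotted lines mark 1.5-fold. The bars run from -0.96 for CTSZ to 1.31 for CTSH, and 9 lie below the lower line.

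Other genes of the pathway, in lists of 148 genes of which 138 were measured and 137 tested, had a share of higher genes near the background and a smaller share of lower ones. At least 1.5-fold with both hairpins, 12 of the 137 were higher and 6 were lower, and 119 were neither. The shares are 8.76% and 4.38%, against the 8.6% and 11.9% of all tested genes given above. This background was not matched to the lists in signal. Genes named from these lists were read on their brightest probe set alone, and their other probe sets were not checked here. The medians were 0.10 with shMMSET#2 and 0.08 with shMMSET#4.

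The V-ATPase, the pump that acidifies the lysosome, had 16 tested subunit genes. With shMMSET#2, 7 of them were at least 1.5-fold higher and 1 was lower, or 43.8% and 6.25% (background 16.2% and 22.5%), with a median of 0.49. With shMMSET#4, 3 were higher and none was lower, or 18.8% and 0% (background 17.3% and 20.6%), with a median of 0.11. ATP6V1E1, a stalk subunit, had 1698 with shLuc, 6762 with shMMSET#2 and 5698 with shMMSET#4, or 3.98-fold and 3.36-fold higher. The list of mTORC1 and nutrient sensing genes holds both parts of mTORC1 and its inhibitors. mTORC1 is a kinase complex that restrains autophagy when amino acids are plentiful. Of 28 tested genes, 3 (10.7%) were higher with both hairpins and none was lower with both, against 8.6% and 11.9% of all tested genes. The medians were 0.35 and 0.19. TSC2, an inhibitor of mTORC1, had 339, 784 and 940, and LAMTOR3, a subunit of the lysosomal scaffold for mTORC1, had 2296, 4873 and 4984.

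Among 23 tested membrane and sorting genes, 4 were higher with both hairpins and 2 were lower. These are 17.4% and 8.7%, against 8.6% and 11.9% of all tested genes. SCARB2 (LIMP-2), the receptor that carries glucocerebrosidase to the lysosome, had 21494 with shLuc, 8869 with shMMSET#2 and 7468 with shMMSET#4, or 2.42-fold and 2.88-fold lower. GNPTAB, the enzyme subunit that starts the mannose 6-phosphate tag of lysosomal hydrolases, had 3518, 7392 and 9722, or 2.10-fold and 2.76-fold higher. The calcium channel gene TPCN2 had 82.5, 187 and 390, and CLN3, a membrane protein lost in juvenile Batten disease, had 263, 670 and 559. Taken as for the members, the spread was 2.64-fold for TPCN2 and 2.36-fold for CLN3. TPCN2 with shMMSET#2 (2.27-fold) and CLN3 with shMMSET#4 (2.12-fold) were inside it. Both were past it with the other hairpin, and SCARB2 and GNPTAB were past theirs with both. Of 39 other autophagy genes, 1 was higher with both and 2 were lower (2.56% and 5.13%). One of the lower genes, VMP1, a scramblase of the endoplasmic reticulum, had 489, 189 and 201 (2.58-fold and 2.43-fold lower). Both values were inside its spread of 2.64-fold. Of 31 other hydrolases, 2 were higher and 2 lower with both (6.45% each), with medians of -0.20 and -0.10, or 0.12 and 0.28 under median scaling.

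**Figure D5:**
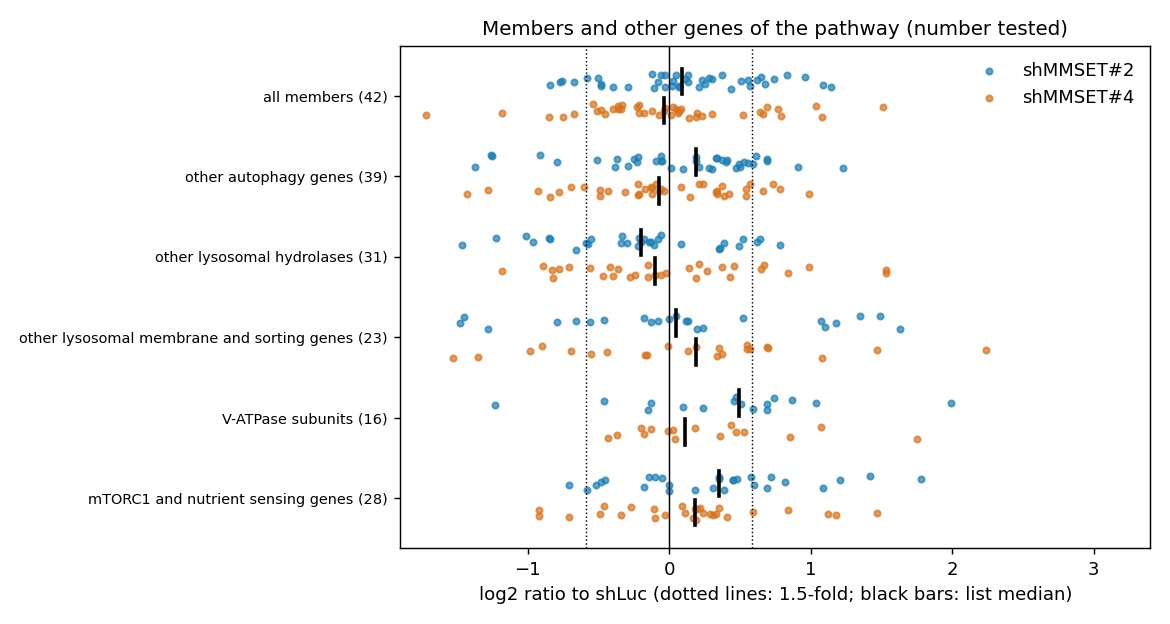
Log2 ratio to shLuc (horizontal axis) of each tested gene in the set of members and in 5 further lists of the pathway, with shMMSET#2 above and shMMSET#4 below in each row, black bars for list medians and dotted lines for 1.5-fold. The V-ATPase list has medians of 0.49 and 0.11, and the members have 0.09 and -0.04.

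Cell type markers were read on the same arrays. All 9 plasma cell markers (SDC1, CD38, TNFRSF17, XBP1, IRF4, PRDM1, MZB1, JCHAIN and SLAMF7) were above the array median on every array, with a summed signal of 113375, 71755 and 100625 in the order shLuc, shMMSET#2, shMMSET#4. With shMMSET#2, 5 of the 9 (55.6%) were at least 1.5-fold lower, against 22.5% of all tested genes. With shMMSET#4, 1 was lower and 2 were higher (11.1% and 22.2%, against 20.6% and 17.3%); their part in the ratios of the members was not tested. Of the markers of monocytes and macrophages, cells rich in cathepsins, 6 of 8 were measured, with a summed signal of 283, 277 and 119, no single signal above 82.4, and CD14 and MRC1 at or under the floor on all 3 arrays. The 5 measured B cell markers of 6 summed to 709, 591 and 722, and the 6 T and NK cell markers to 334, 220 and 216, with CD2 and NKG7 at the floor throughout. The 6 fibroblast and epithelial markers summed to 8461, 4824 and 10886, of which EPCAM made up 8099, 4391 and 10651, while PDGFRB and KRT19 were at the floor on all 3 arrays. The log2 signal difference between the 3′ and 5′ control probe sets of ACTB, a measure of RNA integrity, was 1.70, 1.14 and 1.14, while that of GAPDH was 0.04, 0.10 and 0.00; their part in the ratios to shLuc was not tested.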

How the data were processed

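The labels describe biotin-labelled RNA of KMS11 cells on Affymetrix expression arrays, with 1 array for shLuc, 1 for shMMSET#2 and 1 for shMMSET#4. The deposited values are MAS5 intensities per probe set, linear signals, made with MAS5 per the submitters' processing notes (version not stated there), and GeneSpring was used, per the series' design text. That text gives an older array of the HG-U133 family, while the 54675 probe set identifiers belong to HG-U133 Plus 2.0. The 2% trimmed mean was 500.1 on each array, so the authors' scaling was kept. Such scaling presumes equal total signal in all 3 RNAs, and dim signals are noisy.

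Gene names came from the platform's annotation table, with symbols updated by Entrez identifier (GRCh38.p14 RefSeq table); 62 control probe sets were left out, 41091 had 1 symbol, 1801 had several and 11721 were unnamed here. Values under 41.2 (the 40th percentile over the arrays) were set to it before taking log2, and a fold is the ratio of floored signals. Precision is limited by having 3 arrays. The members, lists and roles were chosen with earlier results of these data known. Named with all 3 signals were members at least 1.5-fold from shLuc with both hairpins or 2-fold with 1, with further members as examples, and in each pathway list genes at least 2-fold with both hairpins, at most 4. Alternatives were other scalings, floors, filters, probe set rules and thresholds, and a limma fit (3.58.1, R 4.3.3) that took the hairpin arrays as 2 samples. Python 3.11.15 with numpy 2.4.6, pandas 2.3.3 and matplotlib 3.10.9 was used. The steps were run on simulated data with noise of SD 0.2 on the log2 scale per array. Log2 ratios between the real hairpin arrays had an SD of 0.62 over all tested genes, so the simulation gives no error rate for these arrays.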

Additional observations from a re-analysis of the deposited data

Results flagged for a closer look

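CTSH was past 1.5-fold in opposite directions with the hairpins, lower with shMMSET#2 and higher with shMMSET#4, and it was the 1 such member of 42. The log2 ratio of shMMSET#4 to shMMSET#2 was 1.31 on its only probe set, with signals of 125 and 309 around 199 with shLuc. The difference was not tested, since each group is 1 array. With shMMSET#2 its log2 ratio of -0.67 fell short of 1.5-fold under each other scaling: -0.35 under median scaling, -0.44 under quantile normalization and -0.39 under scaling to the spiked controls. It was then no longer past 1.5-fold in opposite directions. Of all 13296 tested genes, 121 were past 1.5-fold in opposite directions.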

How the results depend on the processing

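No paired analysis was possible because every group holds replicate 1 alone, and for the same reason no replicate could be left out. Counts are given as lower and higher members, in the order shMMSET#2, shMMSET#4, both hairpins, shMMSET#4 against shMMSET#2; the reported ones are 4 and 8, 5 and 8, 1 and 4, 9 and 2. Under median scaling they were 0 and 15, 2 and 11, 0 and 9, 8 and 4, with medians of 0.41 and 0.34 for the hairpins against shLuc. The shares of all tested genes were then 13.2% and 30.1%, 10.1% and 34.7%, 5.28% and 19.7%, 11.8% and 19.6%. Under scaling to the spiked controls the counts were 0 and 13, 2 and 16, 0 and 11, 3 and 7. The medians were 0.37, 0.48 and, between hairpins, 0.06. All tested genes then had 13.9% and 28.1%, 7.88% and 43.5%, 4.69% and 21%, 7.87% and 27.5%. With a 2-fold threshold the member counts were 0 and 2, 2 and 3, 0 and 1 (ATG2B), 0 and 1. A 3-fold threshold gave 0 throughout, except 1 lower with shMMSET#4 (GABARAPL1). With the mean over all probe sets, 9 were lower with shMMSET#4, 2 with both (GABARAPL1 and WIPI1) and 4 with shMMSET#4 against shMMSET#2. The shares of all tested genes were 16%, 8.73% and 9.21%. With shMMSET#4 against shMMSET#2, CTSZ dropped out at -0.48, a mean that includes a probe set under the floor on all 3 arrays. SQSTM1 and ATG7 turned to -0.02 and -0.26 with shMMSET#2. Without _x_at and _s_at probe sets, 29 members were tested. Of these, 2 were lower with shMMSET#2 (median -0.03), 5 higher with shMMSET#4, 0 lower with both and 1 higher with shMMSET#4 against shMMSET#2. The shares of all tested genes were 24.3%, 16.2%, 13.7% and 16.7%. SQSTM1 and ATG7 turned to -0.10 and -0.63. With a filter at the 75th percentile 37 members were tested and 1 was higher with shMMSET#4 against shMMSET#2 (13.1% of all tested genes). The cause of these changes was not tested, apart from the smaller numbers tested. Other counts of members stayed within 1.5 times the reported ones. GLA, NEU1 and NPC2 stayed past 1.5-fold with both hairpins under every scaling tried, with log2 ratios from 0.60 to 1.56. Each is bright and was read by 1 probe set, so the other floors, filters and probe set rules could not change its ratios. With limma on 13076 genes, leaving out those with both hairpin arrays at the floor, 0 members were lower and 0 higher at an adjusted p of 0.05 (smallest 0.489, ATG2B), and at an unadjusted p of 0.05 there were 2, GABARAPL1 and ATG2B (4.76% of members, 9.37% of genes); limma called 0 of all genes. Ratios of dim members such as ATG16L1 and CTSH are limited by signal over background.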
